A study of Zea mays with 10 samples.

Results

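SWEET14A (Zm00001d007365), SWEET15A (Zm00001d050577) and MS8 (Zm00001d012234) were 3 of the 45953 genes counted in the bulk RNA-seq libraries of developing maize endosperm, and were chosen as genes assigned to the endosperm adjacent to scutellum (EAS), by the identifiers in the supplementary tables of the study. All 3 were found in every library. PEBP11, another gene placed in the EAS, was not analysed here, because no identifier in the tables used pairs with that name. The EAS is a set of thin cell layers on the face of the endosperm that borders the scutellum, the organ through which the embryo takes up nutrients. SWEET proteins are membrane channels that let sugars leave a cell along their gradient, and SWEET14A and SWEET15A belong to the clade known for moving sucrose. MS8, named for the male sterility of its mutant, encodes a beta-galactosyltransferase that is known from maize anther development.

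All libraries came from wild-type endosperm of the inbred line B73. The replicated comparison had 3 libraries at 6 days after pollination (DAP) and 3 at 7 DAP, and each was made from 20 pooled endosperms of a separate ear according to the methods. A second experiment had 1 library per stage of undigested endosperm and 1 per stage of protoplasts, which are cells freed by wall-digesting enzymes. Total counts lay between 15911047 and 30203337 per library, and no pair of replicates was close enough to be the same library under another name. Whole endosperm mixes all its cell types, so the libraries do not show in which cells the 3 genes were transcribed, and fewer cells of a type cannot be told apart from less RNA per cell.

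The study assigned a cluster of its single cells to the EAS because SWEET15A, MS8 and PEBP11 were more strongly expressed there. Its in situ hybridization placed SWEET15A and MS8 transcripts in cells around the upper part of the embryo, which it took as likely forerunners of the mature EAS. The primers that made those probes are shown because they fix which transcripts were detected in situ. They are given 5′ to 3′ without the promoter tail added for transcription of the probe, and each gene-specific part has 20 bases.
SWEET15A forward: gagcgtggagttcatgccta
SWEET15A reverse: aatgacggtgaccatgtcgg
MS8 forward: gacatccacctcaacctcgg
MS8 reverse: cggtccaccgacttacagac
Of these bases, 55.0% are G or C in both SWEET15A primers and 60.0% in both MS8 primers.

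Between 6 and 7 DAP all 3 genes rose, to about 3 times their level in the SWEET genes and to 2.62 times in MS8. SWEET14A was counted 46, 47 and 52 times in the libraries at 6 DAP and 119, 169 and 171 times at 7 DAP. Expressed as CPM, counts scaled to a common library size, with TMM factors that correct library totals for differences in composition, its level was 2.68 ± 0.628 CPM at 6 DAP and 7.84 ± 0.579 CPM at 7 DAP (SD, n = 3). The highest library at 6 DAP reached 3.09 CPM and the lowest at 7 DAP 7.18 CPM, so the stages did not overlap. Among the 6 DAP libraries, replicate 1 was the lowest at 1.96 CPM, while replicates 2 and 3 reached 3.00 and 3.09 CPM. With edgeR's quasi-likelihood test the rise was 1.58 on the log2 scale (SE 0.17, adjusted p = 8.17e-08), a 3.00-fold change.

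SWEET15A, also a sucrose transporter, had 145, 93 and 98 counts at 6 DAP and 328, 401 and 376 counts at 7 DAP. Its TMM-scaled level was 5.98 ± 0.184 CPM at 6 DAP and 19.03 ± 0.796 CPM at 7 DAP (SD, n = 3). Its replicates lay close together at both stages, from 5.82 to 6.18 CPM and from 18.2 to 19.8 CPM, with a wide gap between the stages. The rise was 3.17-fold, 1.66 on the log2 scale (SE 0.10, edgeR adjusted p = 4.9e-12). MS8, the glycosyltransferase, had 583, 390 and 398 counts at 6 DAP and 1062, 1330 and 1347 counts at 7 DAP. Its level was 24.5 ± 0.726 CPM and then 64.2 ± 0.938 CPM (SD, n = 3). Its 2.62-fold rise, 1.39 on the log2 scale (SE 0.05, edgeR adjusted p = 3.09e-15), had the smallest standard error of the 3 genes, and it was the gene with the most counts.

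**Figure D1:**
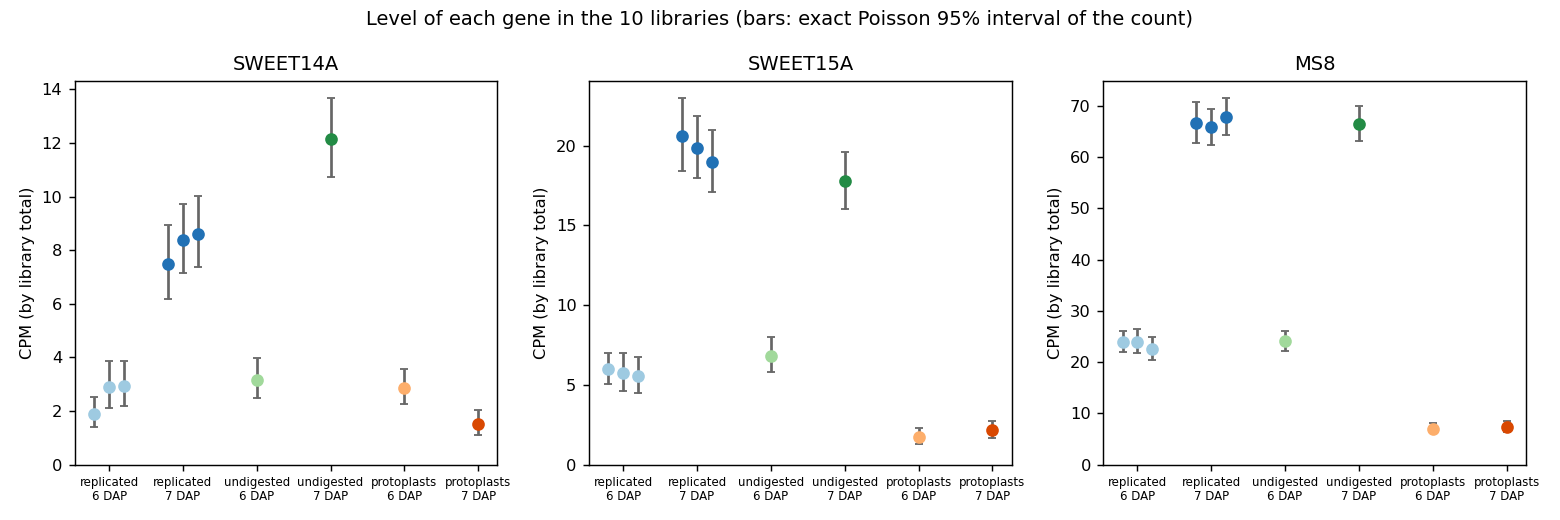
CPM by library total (vertical axis, linear from 0) of SWEET14A, SWEET15A and MS8 in the 10 libraries, 1 point per library, with exact Poisson 95% intervals of the count as bars. MS8 lay near 24 CPM in the replicated and undigested 6 DAP libraries, near 67 CPM in those at 7 DAP and near 7 CPM in both protoplast libraries.

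Among the 21486 genes tested between the stages, 28.2% were called higher at 7 DAP at an adjusted p under 0.05, and all 3 genes were among them. When the log2 fold change also had to exceed 1, 3 of 3 were called against 7.4% of all tested genes, and at the limit of 2 that the methods of the study set, 0 of 3 against 2.54%. A rise at least as large was measured in 3.85% of tested genes for SWEET14A, 3.57% for SWEET15A and 4.63% for MS8. The median log2 fold change was 1.58 over the 3 genes and 0.02 over all tested genes. Replicates of the stages did not overlap and were higher at 7 DAP in 31.2% of tested genes. An exact two-sided permutation test of each gene over the 6 libraries gave p = 0.1, the smallest value that 3 against 3 allows. The methods name separate ears for the replicates. If so, the p-values measure the spread between pools of endosperms from different ears of 1 inbred line. That spread was small, with a common estimate in edgeR of 4.14% beyond counting error. Whether the replicates were independent material was not tested.

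The rises of the 3 genes were compared by exact permutation tests, in which no difference could pass, because 3 against 3 libraries cannot give a p below 0.1. The count of SWEET15A divided by that of MS8 in the same library, a ratio that does not depend on how libraries are scaled, was 0.238 to 0.249 at 6 DAP and 0.279 to 0.309 at 7 DAP. The stages did not overlap, and the log2 ratio was higher by 0.28 at 7 DAP, from -2.03 ± 0.0317 to -1.76 ± 0.0762 (SD, n = 3; exact permutation p = 0.1, adjusted over 3 pairs of genes 0.3). Whether SWEET15A rose more than MS8 is therefore not decided by this test, which cannot go below 0.1 with 3 against 3. The log2 ratio of SWEET14A to SWEET15A differed between the stages by -0.10 and that of SWEET14A to MS8 by 0.18 (exact permutation p = 0.7 for each, n = 3 against 3). Both ratios overlapped between the stages, and the sign of both depended on the 6 DAP libraries: without replicate 1 at 6 DAP the ratio of SWEET14A to MS8 differed by -0.0428, and without replicate 2 or 3 that of SWEET14A to SWEET15A by 0.0033 or 0.0384.

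**Figure D2:**
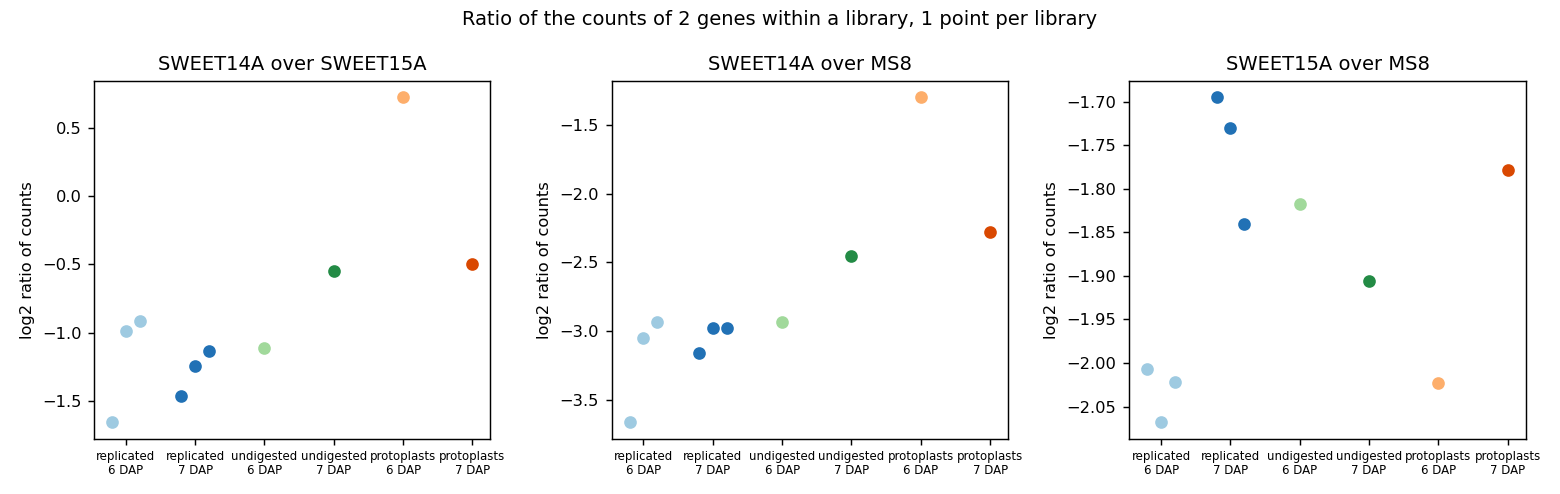
Log2 ratio of the counts of 2 genes within a library (vertical axis, a separate scale per panel) for the 3 pairs of genes, 1 point per library in the 6 groups. The ratio of SWEET15A to MS8 stays between 0.238 and 0.309 in the 10 libraries, while the protoplast library at 6 DAP stands above the others in both ratios with SWEET14A.

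The undigested libraries of the second experiment gave the change from 6 to 7 DAP in separate libraries, with 1 library per stage and so no test. Whether their endosperms were separate from those of the replicated libraries was not tested. All 3 genes were higher at 7 DAP there. SWEET14A had 73 counts at 6 DAP and 270 at 7 DAP, or 3.15 and 12.1 CPM by library total. Its 3.85-fold difference had a 95% interval of 2.96 to 5.06, an exact binomial interval of the ratio that covers counting error only. SWEET15A went from 6.82 to 17.8 CPM (158 and 395 counts), 2.60-fold with an interval of 2.16 to 3.15. MS8 went from 24.1 to 66.6 CPM (557 and 1480 counts), 2.77-fold with an interval of 2.51 to 3.06. On the log2(CPM + 1) scale the differences were 1.66, 1.26 and 1.43, against a median of 0.08 over the tested genes.

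Ranked by CPM by library total, MS8 had 3 separate levels. The replicated 7 DAP libraries and the undigested 7 DAP library came first, the replicated and undigested 6 DAP libraries followed, and both protoplast libraries came last. Within each level the Poisson intervals of neighbouring libraries overlapped, and between levels they did not. SWEET15A had the same order of groups, with 18.9 to 20.6 CPM in the replicated 7 DAP libraries, 5.55 to 5.96 CPM in those at 6 DAP, and 1.73 and 2.15 CPM in protoplasts at 6 and 7 DAP. SWEET14A departed from it. Its undigested 7 DAP library, at 12.1 CPM (exact Poisson 95% interval 10.7 to 13.7), was above the replicated 7 DAP libraries at 7.48, 8.36 and 8.62 CPM, and its protoplast library at 6 DAP, at 2.86 CPM, fell within the range of 1.89 to 3.15 CPM of undigested endosperm at that stage.

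Protoplasts held fewer transcripts of SWEET15A and MS8 than undigested endosperm. With edgeR and stage as a covariate, which takes the 6 and 7 DAP libraries as replicates of each other, SWEET15A was 5.14-fold lower in protoplasts (log2 fold change -2.36, SE 0.34, adjusted p = 0.00691). MS8 was 4.98-fold lower (log2 fold change -2.32, SE 0.35, adjusted p = 0.00797). For SWEET14A the estimate was -1.41 with a standard error of 0.72 and it did not pass the test (adjusted p = 0.18). No library was repeated within a stage, so these p-values do not measure the spread between digestions of the same stage. Of the 22799 genes tested, 16.3% were called lower in protoplasts, and 2 of the 3 genes were among them. A fall at least as large was measured in 1.68% of tested genes for SWEET15A, 1.75% for MS8 and 5.59% for SWEET14A. The median log2 fold change was -2.32 over the 3 genes and -0.03 over all tested genes. Leaving out a library would leave no spread to test with, so each stage is given on its own.

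At 6 DAP SWEET15A had 158 counts undigested and 46 in protoplasts, a 3.94-fold lower level (95% interval 2.82 to 5.60, counting error only). MS8 had 557 and 187 counts, a 3.42-fold lower level (2.89 to 4.05). SWEET14A had 73 and 76 counts, and the log2 ratio of its CPM was -0.14 with an interval of -0.62 to 0.34. At this stage only SWEET14A had an interval that included no change. At 7 DAP SWEET14A had 270 counts undigested and 46 in protoplasts, SWEET15A 395 and 65, and MS8 1480 and 223. The levels in protoplasts were then 7.97-fold lower for SWEET14A (5.82 to 11.2), 8.25-fold lower for SWEET15A (6.34 to 10.9) and 9.02-fold lower for MS8 (7.83 to 10.4), with intervals that overlapped. On the log2(CPM + 1) scale the differences at 7 DAP were -2.38, -2.57 and -3.01, against a median of -0.22 over the tested genes, and at 6 DAP -0.10, -1.52 and -1.64 against -0.09.

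Within protoplasts the levels at 6 and 7 DAP stood otherwise. MS8 went from 7.04 to 7.38 CPM, a log2 ratio of 0.07 with a 95% interval of -0.22 to 0.36. SWEET15A went from 1.73 to 2.15 CPM, a log2 ratio of 0.31 with an interval of -0.25 to 0.89. SWEET14A went from 2.86 to 1.52 CPM, a log2 ratio of -0.91 with an interval of -1.47 to -0.36. The intervals of MS8 and SWEET15A included no change, that of SWEET14A lay below it, and none reached the interval of the same ratio in undigested endosperm. As a ratio of 7 to 6 DAP, the upper bound in protoplasts was 1.28 for MS8, 1.85 for SWEET15A and 0.777 for SWEET14A, while the lower bound in undigested endosperm was 2.51, 2.16 and 2.96. These are differences between single libraries, so whether they would recur was not tested.

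**Figure D3:**
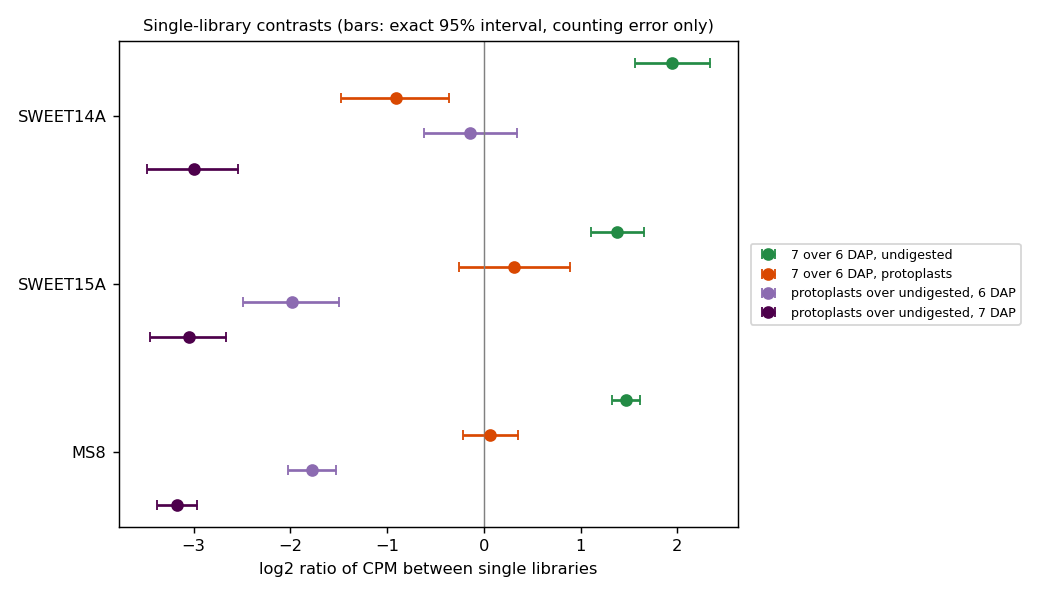
Log2 ratio of CPM between single libraries (horizontal axis) for the 3 genes, with exact binomial 95% intervals of counting error as bars; green and orange are 7 over 6 DAP in undigested endosperm and in protoplasts, light and dark purple are protoplasts over undigested endosperm at 6 and 7 DAP. The ratio at 7 DAP lies near -3 for all 3 genes, while at 6 DAP SWEET14A is at -0.14 and the other genes are below -1.7.

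SWEET15A and MS8 changed almost in step across the 10 libraries, with a Pearson's r of 0.993 on log2(CPM + 1). For SWEET14A the values were 0.860 with SWEET15A and 0.842 with MS8, and over the 8 libraries that were not protoplasts 0.931 and 0.948. The libraries share stage and digestion, so these values describe 6 groups and carry no test. In the protoplast library at 6 DAP the count of SWEET14A was 1.65 times that of SWEET15A, compared with 0.317 to 0.708 times in the other 9 libraries.

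Of 3 other SWEET genes with an identifier, SWEET11A was called in the same directions as SWEET15A and MS8 in both comparisons, SWEET14B rose between the stages but was higher in protoplasts, and SWEET4C was called in neither. SWEET4C, the hexose transporter of the basal transfer layer through which sugars enter the endosperm, had -0.05 on the log2 scale between the stages (edgeR adjusted p = 0.374, overlapping replicates) and 0.45 in protoplasts (adjusted p = 0.0522). SWEET11A rose between the stages by 1.11 on the log2 scale (SE 0.25, adjusted p = 0.000884) from 14 to 27 counts per library to 44 to 50. In protoplasts it was lower (adjusted p = 0.0194), with 87 counts undigested and 10 in protoplasts at 7 DAP, and 23 and 0 at 6 DAP, at least 8.79-fold lower there against a floor of 3 counts in the protoplast library. The exact 95% interval of that ratio, which also covers the counting error of the undigested library, begins at 6.59-fold. SWEET14B, which shares its family number with SWEET14A, had few counts, 4 to 10 per library at 6 DAP and 16 to 34 at 7 DAP, and rose by 1.86 on the log2 scale (SE 0.45, adjusted p = 0.00148).

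SWEET14B was called in the opposite direction to SWEET15A in protoplasts. It had 6 counts undigested and 67 in protoplasts at 6 DAP, and 32 and 97 at 7 DAP, and was 4.52-fold higher in protoplasts with edgeR (log2 fold change 2.18, SE 0.60, adjusted p = 0.0429). The count of SWEET14A was 4.7 to 13 times that of SWEET14B in the 8 libraries of undigested endosperm, and 1.13 and 0.474 times in protoplasts at 6 and 7 DAP. The log2 ratio was lower by 3.79 in protoplasts on average, and an exact permutation test of 2 against 2 libraries gave p = 0.333, the smallest value possible. That ratio was chosen after its values were seen. Only uniquely mapped reads were counted, and how many reads of the SWEET14 pair map to both genes was not tested.

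Genes that carry, cleave or use sucrose were described from a list of 9 genes. Between the stages, where 28.2% of all tested genes rose and 28% fell, 7 of the 8 tested genes rose and 1 fell, with a median log2 fold change of 1.54, near the values of the 3 EAS genes. The largest rise was that of SH1, a sucrose synthase (log2 fold change 2.96), followed by INVINH1, an invertase inhibitor (2.77). SH2, a subunit of the ADP-glucose pyrophosphorylase of starch synthesis, rose by 2.18, BT1, the ADP-glucose carrier of the plastid, by 1.61, and the sucrose synthases SUS1 and SUS2 by 1.48 and 1.44. SUT1, a sucrose uptake transporter, rose by 0.26, while MN1, the cell wall invertase of the basal endosperm, fell by 2.22. INVINH2 did not pass the filter on low counts. In protoplasts, where 23% of all tested genes were called higher and 16.3% lower, 2 of the 8 were higher (SUS2 by 2.72 and SUT1 by 0.65), 3 were lower and 3 were not called, with a median of -1.69. The lower genes were SH2 (-3.76), INVINH1 (-1.71) and MN1 (-1.67). Not called were SH1 (-4.41, SE 1.47, edgeR adjusted p = 0.0689), BT1 (-2.68, SE 0.83, adjusted p = 0.0568) and SUS1 (0.14, adjusted p = 0.499). The estimate of SH1 was thus the largest of the 8, with 14062 counts undigested and 120 in protoplasts at 7 DAP. For SH1 and BT1, not being called does not mean that the level was unchanged.

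O11, a basic helix-loop-helix transcription factor of endosperm development, was of interest because MS8 and SWEET15A are on the list of its targets from earlier chromatin immunoprecipitation that the supplementary tables give. O11 did not pass the test between the stages (log2 fold change 0.04, SE 0.03, edgeR adjusted p = 0.271) and its replicates overlapped, from 160 to 166 CPM at 6 DAP and from 161 to 173 CPM at 7 DAP with TMM factors. In protoplasts it was 3.41-fold lower (log2 fold change -1.77, SE 0.13, adjusted p = 0.00122), at 52.3 and 46.9 CPM by library total in protoplasts against 183 and 196 CPM undigested. Of the listed targets, 230 were tested between the stages, of which 115 (50%) rose and 66 (28.7%) fell, beside 28.2% and 28% of all tested genes. Their median log2 fold change was 0.15, so MS8 and SWEET15A rose more than most genes on the list. In protoplasts 78 of 228 targets (34.2%) were higher and 46 (20.2%) lower, beside 23% and 16.3% of all tested genes (median 0.22), whereas MS8 and SWEET15A were among the lower ones.

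A further list held 125 genes from the enriched terms of the cell cluster that the study assigned to the EAS, and 0 of the 3 genes were on it. Of the 124 that were tested, 15 (12.1%) rose and 75 (60.5%) fell between 6 and 7 DAP, beside 28.2% and 28% of all tested genes, with a median log2 fold change of -0.14, and 0 of them rose by more than 1 on the log2 scale. Falls of more than 1 were called in 2 of them (1.61%), beside 2.19% of all tested genes, so most of the falls were small. SWEET14A, SWEET15A and MS8 thus changed in the opposite direction to most genes of that list. In protoplasts 29 (23.4%) were higher and 23 (18.5%) lower, near the 23% and 16.3% of all tested genes, with a median of -0.01. The list was chosen by the study from its single-cell data and its table was held here only in part.

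Markers of other cell types also changed between the stages, at which 28.2% of all tested genes rose and 28% fell, and those of the embryo, the embryo-surrounding region (ESR) and the aleurone changed in the direction of the 3 EAS genes. Of 4 embryo markers (OLE1, OLE3, GLB1 and OBAP1A, which encode oil body and storage proteins) 4 rose between the stages, with a median log2 fold change of 3.27, and their summed TMM CPM went from between 65.1 and 71.8 to between 543 and 570. The 5 markers of the ESR, the endosperm around the young embryo, all rose (median 2.31), from 378 to 387 summed CPM to 1990 to 2004. Of 5 markers of the starchy endosperm (SE), 4 rose and FL3 fell (median 2.01), from 4635 to 4802 summed CPM to 6626 to 6769. Markers of the basal transfer layer fell (4 of 4, median -1.81), and those of the aleurone rose (3 of 3, median 0.62). The summed level of the 3 EAS genes rose from between 32.5 and 33.9 CPM to between 90.5 and 91.7 CPM, and no marker of these lists was at 0 counts in any library. The log2 ratio of the EAS sum to the SE sum was higher by 0.95 at 7 DAP, whereas that to the ESR sum differed by -0.92 and that to the embryo sum by -1.56. The SE sum rested mainly on TAR1 and FL3, at 1939 and 2092 CPM at 6 DAP, which had log2 fold changes of 0.35 and -0.80, whereas SH2 (2.18), ZP27 (2.43) and DE18 (2.01) had larger ones than any of the EAS genes. Each of these ratios was computed after the values were seen and separated the stages without overlap (exact permutation p = 0.1 and adjusted over the 3 ratios 0.1, n = 3 against 3). What part embryo tissue or other cell types had in the rise of the EAS genes was not tested.

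In the protoplast experiment the summed EAS level, in CPM with TMM factors, was 2.69-fold lower in protoplasts at 6 DAP and 7.52-fold lower at 7 DAP. The single-library folds of each gene given earlier used library totals, so they are on another scale. For the SE sum the values were 2.59-fold and 4.08-fold, and for the ESR sum 3.97-fold and 2.51-fold. The EAS genes and the starchy endosperm markers thus had the larger deficit at 7 DAP, and the ESR markers at 6 DAP. Embryo markers were 1.55-fold higher in protoplasts at 6 DAP and 1.96-fold lower at 7 DAP. The SE sum covered unlike genes. By library totals at 7 DAP, TAR1 was 2.74-fold lower in protoplasts, FL3 5.73-fold and DE18 6.49-fold. SH2 was 48.6-fold and ZP27 162-fold lower, beside 7.97-fold to 9.02-fold for the EAS genes. From 6 to 7 DAP within protoplasts the EAS sum was 0.960 times its earlier level and the ESR sum 8.36 times, beside 2.69 and 5.30 times in undigested endosperm. The EAS sum in protoplasts rested mainly on MS8, at 7.43 and 7.87 CPM with TMM factors. SWEET14A went from 3.02 to 1.62 CPM there and SWEET15A from 1.83 to 2.29 CPM. With 1 library for each of these sums, the differences between cell types were not tested.

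**Figure D4:**
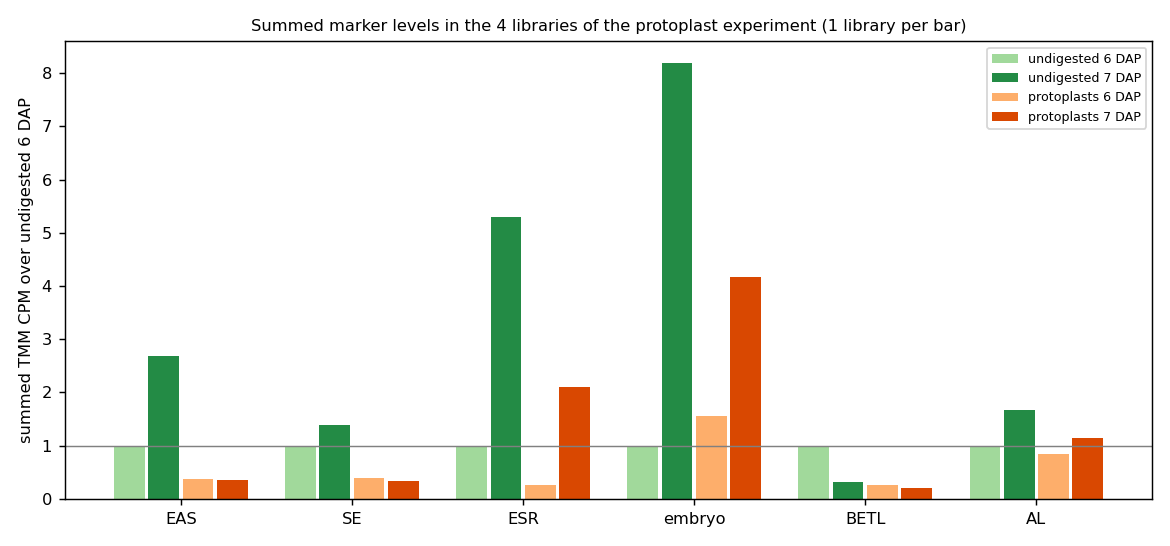
Summed TMM CPM of each marker list relative to its own level in undigested endosperm at 6 DAP (vertical axis, linear from 0), 1 library per bar; BETL is the basal transfer layer and AL the aleurone. The EAS bars of the protoplast libraries are 2.69-fold and 7.52-fold below the undigested bars of the same stage, and the ESR list reaches 8.36 times its 6 DAP protoplast level at 7 DAP.

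**Figure D5:**
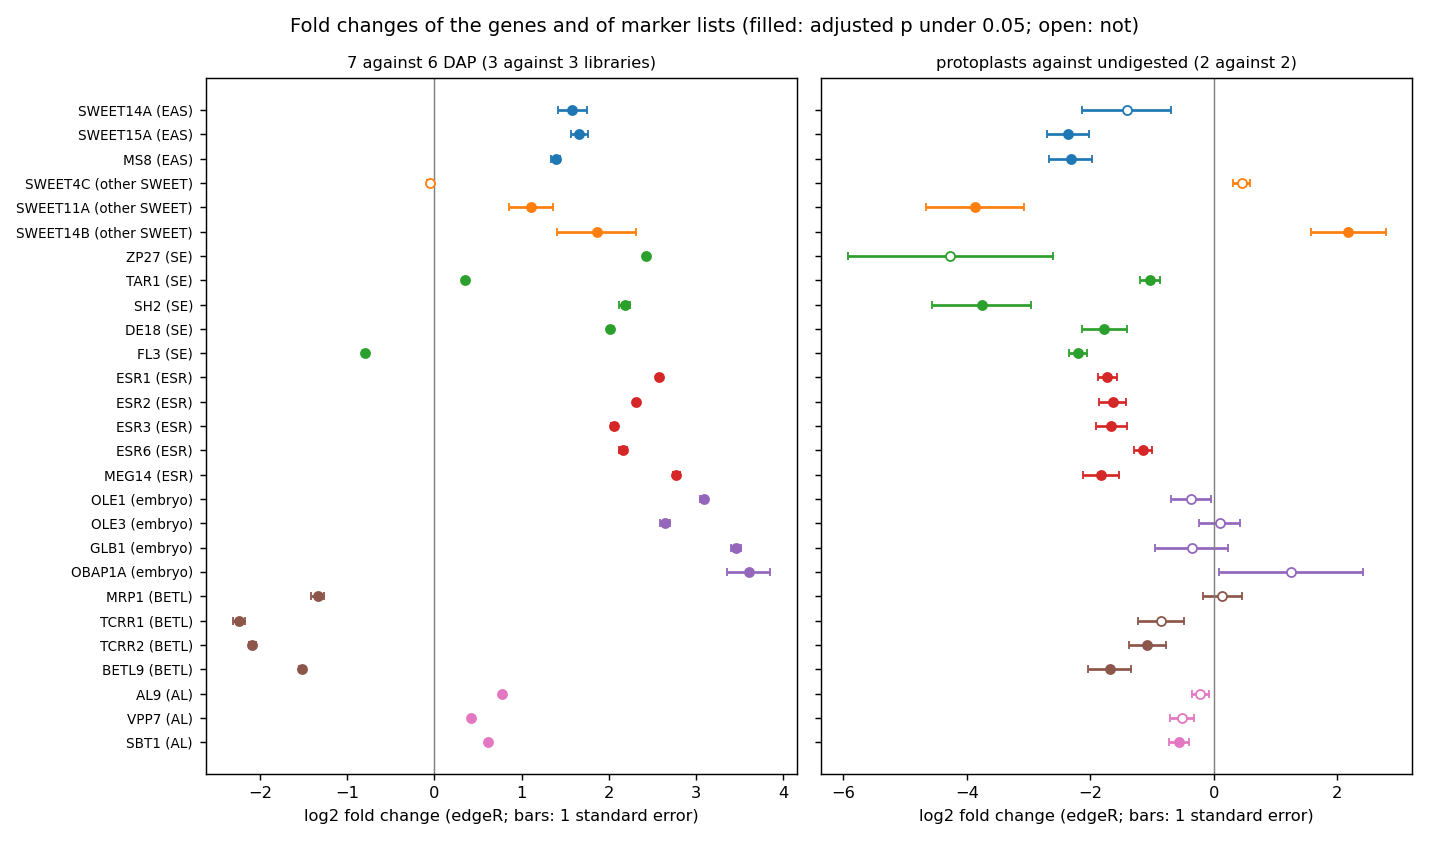
Log2 fold change with 1 standard error (horizontal axis, edgeR) of the EAS genes, other SWEET genes and the marker lists, between stages on the left and between protoplasts and undigested endosperm on the right; filled points passed an adjusted p of 0.05. The 3 EAS genes lie between 1.39 and 1.66 on the left, and on the right SWEET14A at -1.41 is open while SWEET15A and MS8 are filled.

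The genes whose pattern over the 10 libraries was most like each of the 3 were sought among 1686 named genes with a mean of at least 10 CPM, by Pearson's r on log2(CPM + 1), as a description without a test. For MS8 these were Orphan313 (r = 0.998), SH2 (0.993) and ZIM21 (0.992). For SWEET15A they were Orphan313 (0.990), MADS25 (0.988), a MADS-box gene, and PDK1 (0.987), a pyruvate orthophosphate dikinase. For SWEET14A they were DZS18 (0.973), a delta zein storage protein, CER1 (0.970) and ZP2 (0.967). MS8 and SWEET15A shared Orphan313, and SWEET14A shared none of its 3 genes with either. These names depended on the measure and the libraries: over the 6 replicated libraries 0 of the 3 names remained for each gene, and with Spearman's rho 1 remained for SWEET15A and 0 for SWEET14A and MS8.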

How the data were processed

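The deposited values are raw counts per gene. The authors had used Trimmomatic 0.39 for trimming, STAR for alignment to B73 and featureCounts 2.0.1 for counting, keeping only reads with a unique position. The labels name a library kit that the methods do not. Samples were grouped by their labels. edgeR 4.0.16 in R 4.3.3 was run on the counts of each experiment separately (TMM, filterByExpr, quasi-likelihood F test, Benjamini-Hochberg adjustment over all tested genes). A standard error is the log2 fold change divided by the square root of F. Genes were called at an adjusted p under 0.05. Single libraries were compared on log2(CPM + 1) with exact 95% intervals of counting error only, since reads without molecular identifiers are not independent molecules. Alternatives were other scaling, other filters, DESeq2 1.42.0, a replicate block and leaving out each replicate. Scripts were tested on simulated data. Named genes were the 3 EAS genes, lists of other SWEET genes, sucrose genes, O11 with its targets, cell type markers, and the 3 genes most alike to each. The 3 genes and the lists were chosen with earlier results of these data known. No identifier of the 3 genes matched the RefSeq table of another assembly, so no coordinates are given. Gene lengths were not used, so ratios of counts between genes and summed levels are not corrected for length.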

Additional observations from a re-analysis of the deposited data

Results flagged for a closer look

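SWEET14A differed in opposite directions between 6 and 7 DAP in the 2 materials of the protoplast experiment: its difference on the log2(CPM + 1) scale was 1.66 in undigested endosperm and -0.61 in protoplasts. With 1 library per group the difference between the materials was not tested.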

How the results depend on the processing

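All 3 genes were called higher at 7 DAP under every scaling, filter and tool tried, with log2 fold changes of 1.56 to 1.70 for SWEET14A, 1.66 to 1.78 for SWEET15A and 1.39 to 1.51 for MS8. Scaling by library totals moved the median of all genes by 0.11 between stages and by -0.17 for protoplasts. With a log2 limit of 2, 0 genes were called. Leaving out each replicate in turn gave 1.36 to 1.71, 1.64 to 1.70 and 1.36 to 1.41 in the same order. It gave -0.33 to 0.0384 for the ratio of SWEET14A to SWEET15A (0.0033 and 0.0384 without 6 DAP replicates 2 and 3), -0.0428 to 0.32 for SWEET14A to MS8 and 0.25 to 0.32 for SWEET15A to MS8. In protoplasts SWEET14A passed under no alternative (adjusted p 0.114 to 0.172), while SWEET15A (highest 0.0139) and MS8 (highest 0.011) passed under all of them. With a pseudocount of 0.1 in place of 1, the 7 DAP differences in protoplasts were -2.92 for SWEET14A and -2.99 for SWEET15A. Of the 3 genes most alike, 0 remained for each of the 3 genes over the 6 replicated libraries. With Spearman's rho 0 remained for SWEET14A and MS8 and 1 for SWEET15A.

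With the replicate number as a block, the rises were 1.56, 1.66 and 1.39 and 3 of 3 genes were called, with 12152 genes called in all. The deviations of libraries with the same number correlated at 0.104, 0.0224 and -0.00446, so the numbers were not taken as pairs.

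At 46 to 76 counts for SWEET14A in 6 DAP and protoplast libraries, counting error limits what can be told apart. Changes of the digested cells rest on 1 library per stage.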
